A study of Mus musculus with 36 samples.

Results

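miR-139 is the microRNA (miRNA) hairpin described here through its mature products, mmu-miR-139-5p and mmu-miR-139-3p. Rows were taken from the deposited count files by these exact names, which gave 2 of the 1966 mature miRNA names in the files, with 1 entry per arm. Both were chosen by their measured counts in the AGO1/3/4 experiment, so their values there stand as a description and carry no test. Small RNA sequencing was done on total RNA of CD4 T cells from C57BL/6J mice, in 36 libraries. In the first experiment, cells lacking AGO1, AGO3 and AGO4 (AGO134 KO) were set against wild-type littermates (WT): 4 and 4 libraries of naive cells sorted from spleen, 4 and 4 at day 7 of culture towards the T helper 2 fate (Th2) and 3 and 3 at day 14. In the second, cells with floxed Ago2 alleles and the T lineage CD4-Cre driver (AGO2 KO) were set against cells that carry CD4-Cre alone (Cre), as naive cells (4 and 3) and as Th2 cells (4 and 3). Those Th2 cells are labelled day 5, although the text of the series speaks of 7 days. Both groups of the second experiment thus express Cre. Counts of miRNAs do not measure the Ago mRNAs, and the genotypes are given as labelled. The labels do not say that the libraries of a group come from separate animals, and the spread given here is the spread between libraries.

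Argonaute (AGO) proteins hold mature miRNAs and carry them to target mRNAs, which the miRNA finds mainly through its seed, bases 2 to 8. A hairpin yields a 5p and a 3p strand, of which the strand kept by Argonaute is the guide and the other, usually degraded, the passenger. For miR-139 the 5p strand is the usual guide. In mouse CD8 T cells, miR-139 is known to be lost after activation and to restrain Eomes, a transcription factor of effector cells, and Prf1, which encodes the pore-forming protein perforin.

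The mature strands are shown because they differ in seed, with the seed in capitals and sequences from RefSeq for GRCm38.p6.
mmu-miR-139-5p: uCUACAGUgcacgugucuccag
mmu-miR-139-3p: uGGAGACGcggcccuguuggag
The hairpin follows, with both mature strands in capitals.
Mir139: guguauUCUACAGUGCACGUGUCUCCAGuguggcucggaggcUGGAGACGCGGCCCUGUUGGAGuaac
Both strands are 22 bases long and begin with U, and G and C make up 54.5% of the 5p and 68.2% of the 3p strand. None of the other mature miRNAs among the 1679 RefSeq names compared has either seed (0 for each arm). Among the names compared, the nearest other mature sequence lies 7 edits from the 5p strand and 6 from the 3p strand. The count files hold 1966 names, and sharing of reads between entries was not tested. The hairpin lies on the plus strand of chromosome 7 at chr7:101475376-101475443, with the 5p strand at chr7:101475382-101475403 and the 3p strand at chr7:101475418-101475439. In the GENCODE annotation it falls in an intron of 10 of the 12 transcripts of Pde2a, which encodes a cyclic nucleotide phosphodiesterase, and in no exon of them (0 transcripts). The readthrough gene Gm45837 also spans it in an intron of its 1 transcript. The nearest other annotated miRNA gene, Gm22655, is 405741 bases away.

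Depth differed between the experiments. Libraries of the first held 89594 to 337258 counts outside the entries named STD, and libraries of the second 865 to 72093. Naive AGO134 KO library 4 was the shallowest of the first and naive Cre library B of the second. What STD stands for is not explained in the labels. These entries made up between 35.7% and 56.9% of all counts of a library in the first experiment, and between 32.0% and 86.7% in the second. Levels are counts per 1000000 non-STD counts (CPM), relative to the rest of the library. In bulk RNA, fewer cells with a miRNA and less of it per cell cannot be told apart. Of the 7 T cell miRNAs listed to check the cells, all 7 passed the count filter of the first experiment. Among all 1966 names 382 passed it, and passing does not by itself identify a cell type. The 7 summed to 88910 to 93824 CPM in naive WT libraries. In the second experiment they summed to 22981 to 35628 CPM in naive Cre and 32440 to 84850 CPM in naive AGO2 KO libraries.

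miR-139-5p stood highest in naive cells and lowest at day 14 in both genotypes. In AGO134 KO cells its level was 690, 768, 867 and 391 CPM in the 4 naive libraries, then 328, 237, 286 and 208 CPM at day 7 and 65.3, 60.5 and 76.6 CPM at day 14. In WT cells it was 1012, 785, 1107 and 746 CPM in naive libraries, then 298, 440, 480 and 540 CPM at day 7 and 46.9, 58.8 and 25.4 CPM at day 14. No library of a later stage reached the lowest library of the stage before it, in either genotype. Counted per STD count instead, naive and day 7 KO libraries overlapped. At these levels the 5p arm ranked 101st of 687 names by summed counts in naive KO cells and 104th of 844 in naive WT cells. By day 14 it ranked 264th of 813 in KO cells and 307th of 927 in WT cells.

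**Figure D1:**
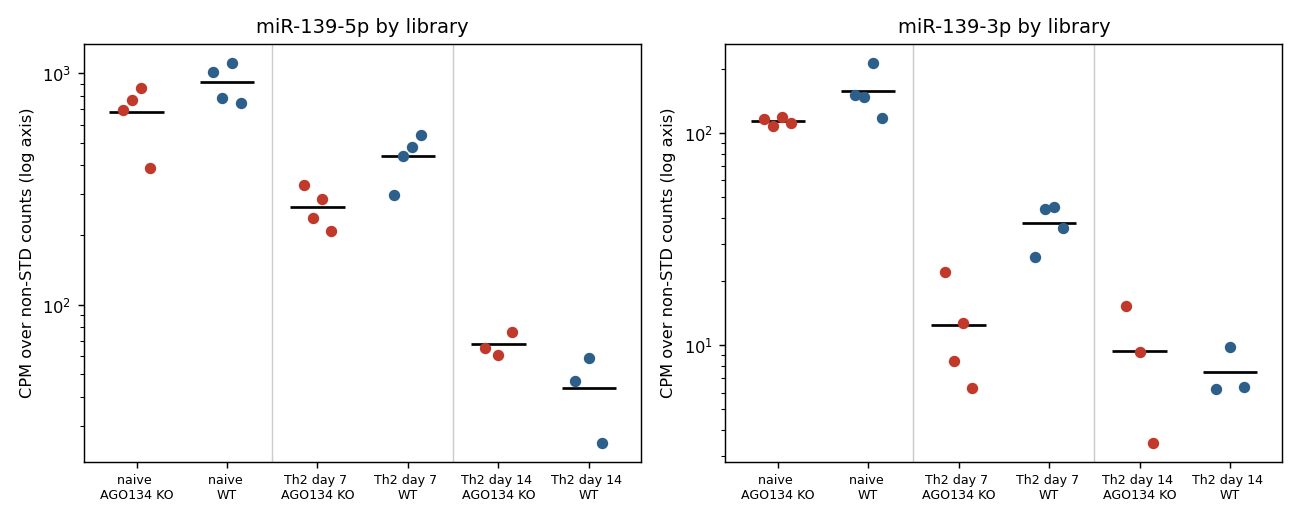
Level of each miR-139 arm per library, in CPM over non-STD counts on a log axis, in AGO134 KO (red) and WT (blue) cells at each stage; bars are group means. The 5p arm is lower at each later stage in both genotypes, and the 3p arm is near the counting limit by day 7 in KO cells.

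In WT cells the 5p arm had a smaller first step and a larger second one. From naive cells to day 7 the log2 fold change was -1.33 with a standard error (SE) of 0.17, in an edgeR fit with TMM scaling over the 382 miRNAs that passed the filter. From day 7 to day 14 it was -3.21 (SE 0.25), and 2 of the 382 miRNAs had a lower value. These were miR-122-5p, a liver miRNA (-4.24, SE 0.27), and miR-143-3p, a stromal miRNA (-3.57, SE 0.59), both listed here as markers of other cells, and their part in the miR-139 value was not tested. Separation of all libraries of a stage from the one before was common: 27.5% of tested miRNAs lay wholly below the naive libraries at day 7, and 30.1% wholly below day 7 at day 14. The 5p counts behind the second step were 15, 18 and 8 at day 14 against 80, 141, 160 and 182 at day 7, a ratio of summed CPM of 0.0974 (95% interval 0.0692 to 0.134, counting error only).

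In KO cells the steps were closer in size. The 5p log2 fold change was -1.67 (SE 0.19) from naive cells to day 7, where 18.6% of miRNAs lay wholly below. It was -2.01 (SE 0.25) from day 7 to day 14, where 20.4% lay wholly below, and 10 miRNAs had a lower value. The KO minus WT difference accordingly stood 1.20 higher on the log2 scale at day 14 than at day 7 (SE 0.38), and 0.33 lower at day 7 than in naive cells (difference -0.33, SE 0.25).

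**Figure D2:**
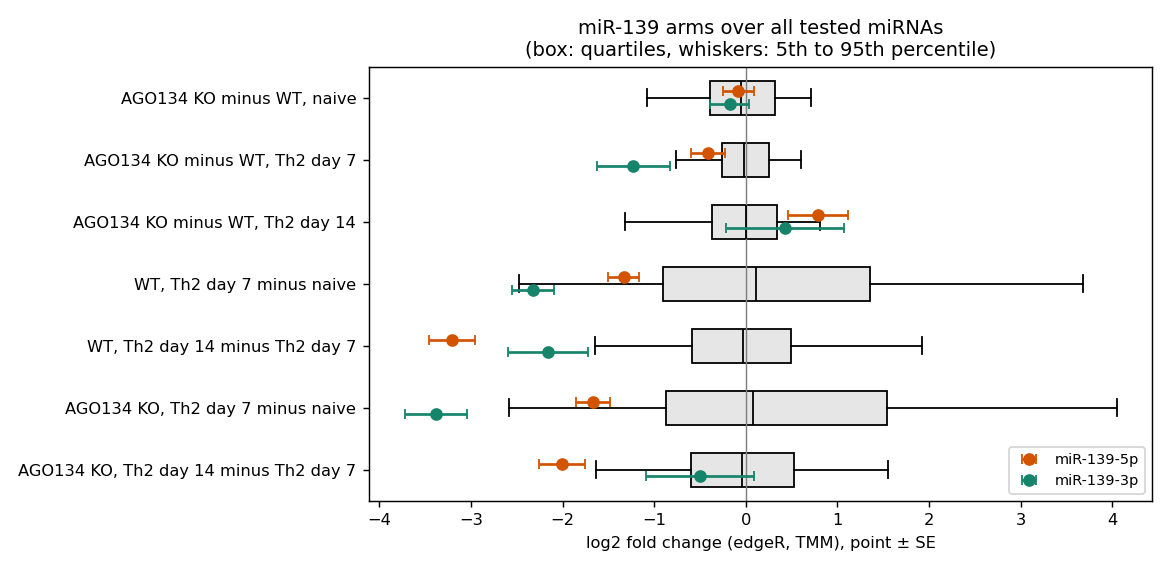
Log2 fold change of miR-139-5p (orange) and miR-139-3p (green) with SE in 7 contrasts, each over a box of the quartiles of all 382 tested miRNAs with whiskers at the 5th and 95th percentiles. The 5p arm lies far left in WT cells between day 7 and day 14 (-3.21). Between genotypes at day 7 the 3p arm is at -1.23, a value that rests on 1 to 5 counts per KO library. The 3p arm failed the filter on the groups alone between genotypes at day 7 and at day 14. It also failed it in KO cells from day 7 to day 14, and its place over those boxes is not read.

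Between genotypes, the 5p arm had a lower mean in KO cells up to day 7 and a higher one at day 14. In naive cells it averaged 679 ± 205 CPM in KO and 913 ± 175 CPM in WT libraries (SD, n = 4 each), and the libraries overlapped. The log2 fold change was -0.08 (SE 0.17), and without KO library 4 it was 0.05. At day 7 it averaged 265 ± 52.7 CPM in KO and 439 ± 102.5 CPM in WT libraries (SD, n = 4 each). KO library 1, at 328 CPM, lay above WT library 1, at 298 CPM, and the other KO libraries lay below all WT libraries. The log2 fold change was -0.41 (SE 0.18). Scaled to the STD entries, all KO libraries lay below all WT libraries, and the value was -1.03 (SE 0.30), where the median of all tested was -0.62.

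At day 14 the 5p arm averaged 67.5 ± 8.28 CPM in KO and 43.7 ± 16.9 CPM in WT libraries (SD, n = 3 each), from 17, 13 and 22 counts in KO against 15, 18 and 8 in WT. All 3 KO libraries lay above all 3 WT libraries, which held for 12.0% of tested miRNAs. The log2 fold change was 0.78 (SE 0.33), and 22 of the 382 miRNAs had a higher value. WT library 3, at 25.4 CPM, carried part of the gap: without it the value was 0.49 (SE 0.31). On the scale of the STD entries the libraries overlapped, and the value was 0.36 (SE 0.46), where the median of all tested was -0.44.

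miR-139-3p, the usual passenger, stood lower at the later stages as well, at fewer counts. KO libraries held 23, 24, 31 and 10 counts as naive cells, 5, 2, 3 and 1 at day 7 and 4, 2 and 1 at day 14. WT libraries held 49, 43, 66 and 31 counts as naive cells, 7, 14, 15 and 12 at day 7 and 2, 3 and 2 at day 14. At day 7 only KO library 1, and at day 14 only KO library 2, held more than 3 counts among the KO libraries, and no WT library did at day 14. A count of 0 allows up to 3 counts, which is 8.90 to 33.5 CPM in these libraries. In WT cells the 3p log2 fold change was -2.33 (SE 0.23) from naive cells to day 7 and -2.16 (SE 0.44) from day 7 to day 14. In KO cells it was -3.38 (SE 0.34) over the first step, while the second rested on 7 counts at day 14 against 11 at day 7 (ratio 0.713, 95% interval 0.234 to 2.02).

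On the CPM scale the 3p arm of the genotypes overlapped in naive cells and at day 14, and did not at day 7. In naive cells it stood at 114 ± 5.10 CPM in KO and 158 ± 40.1 CPM in WT libraries (SD, n = 4 each), with overlap, and the log2 fold change was -0.17 (SE 0.21). Scaled to the STD entries, every naive KO library lay below every naive WT library, and the value was -0.91 (SE 0.27), where the median of all tested was -0.77. At day 7 it stood at 22.1, 8.47, 12.8 and 6.31 CPM in KO libraries against 26.1, 43.7, 45.0 and 35.6 CPM in WT libraries. Every KO library lay below every WT library, as for 23.6% of tested miRNAs. The log2 fold change was -1.23 (SE 0.40) in the fit over all stages, where the arm passed the filter with the help of its naive counts. It did not pass the filter on the day 7 libraries alone, so its place among the tested miRNAs is not given. Summed over libraries, 11 counts stood against 48, a ratio of 0.338 in CPM (95% interval 0.158 to 0.660, counting error only). At day 14 the summed counts were 7 in KO and 7 in WT libraries (ratio 1.24, 95% interval 0.370 to 4.13), and a difference was not detectable at this depth. Depth moved with genotype beside these values, from 158414 to 236046 counts in KO and from 268019 to 337258 in WT libraries at day 7; its part in the result was not tested.

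The share of the 5p strand in all miR-139 counts needs no scaling between libraries. It averaged 84.7% ± 4.76 in naive KO and 85.3% ± 1.57 in naive WT libraries (SD, n = 4 each). At day 7 it averaged 95.7% ± 1.49 in KO and 92.0% ± 1.25 in WT libraries (SD, n = 4 each). The genotypes overlapped at day 7 by a narrow margin, with the lowest KO library at 93.7% and the highest WT library at 93.8%. Every day 7 library exceeded every naive library of its genotype, so the 3p strand was lower relative to 5p at day 7 than in naive cells. At day 14 the mean share was 87.8% ± 7.41 in KO and 84.7% ± 4.22 in WT libraries (SD, n = 3 each), from 10 to 23 miR-139 counts per library. Over the 22 libraries the 5p strand made up 87.9% of 2897 counts (exact 95% binomial interval 86.7% to 89.1%).

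**Figure D3:**
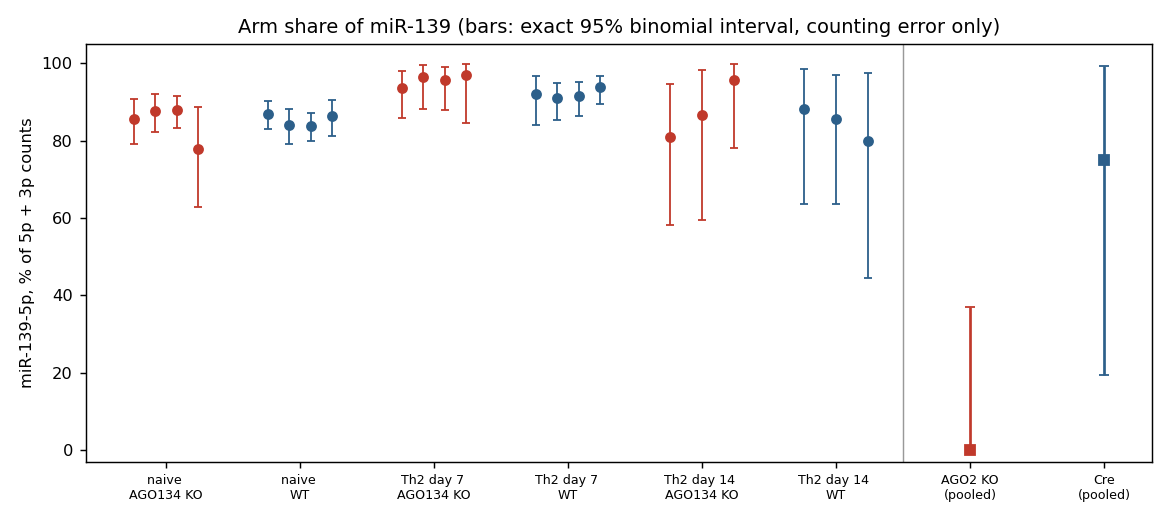
Share of miR-139-5p in the counts of both arms, in percent, per library of the first experiment and pooled over stages in the second, KO in red and WT or Cre in blue; bars are exact 95% binomial intervals for counting error. The day 7 libraries run from 91.0% to 97.1% and lie above every naive library, while day 14 KO library 4 reaches 95.7%, and the pooled AGO2 KO libraries hold no 5p count.

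The second experiment was too shallow for a test: 98 miRNAs passed its filter, and neither arm was among them. In AGO2 KO cells the 5p arm had 0 counts in all 4 naive and all 4 Th2 libraries. In Cre cells it had 0, 0 and 1 counts in naive libraries and 1, 0 and 1 in Th2 libraries. The 3p arm had 1, 0, 0 and 2 counts in naive and 1, 0, 2 and 2 in Th2 AGO2 KO libraries, against 1, 0 and 0 in naive and 0, 0 and 0 in Th2 Cre libraries. Thus all 8 miR-139 counts of AGO2 KO cells were 3p (5p share 0%, exact 95% binomial interval 0% to 36.9%). Of the 4 counts of Cre cells, 3 were 5p (75.0%, interval 19.4% to 99.4%). The groups' 5p levels have intervals that overlap. In Th2 AGO2 KO libraries 0 of 145543 counts is 0 CPM (95% interval up to 25.35). In Th2 Cre libraries 2 of 189580 is 10.5 CPM (95% interval 1.28 to 38.1).

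The 5p arm had fewer counts in the second experiment than its level in the first would give. Th2 Cre libraries together held 2 counts of 5p, whereas the share seen in day 7 WT libraries, 439 CPM, would give 83.3 counts. Th2 AGO2 KO libraries together held 0, where that share would give 63.95. Naive AGO2 KO and Cre libraries together held 1 count of 67670 (14.8 CPM, 95% interval up to 82.3), where the naive WT share of 913 CPM would give 61.7. The 78 other miRNAs within 2-fold of the 5p level in day 7 WT cells had a median of 132 CPM in the same Th2 Cre libraries, and 6 of them were at or below the 5p count. In naive cells 64 miRNAs lay within 2-fold, with a median of 118 CPM and 4 at or below. The 3p arm had 4 counts in the naive libraries, where its naive WT share would give 10.7. That is 59.1 CPM (95% interval 16.1 to 151.3). The 75 other miRNAs within 2-fold of its naive WT level had a median of 29.6 CPM, and 48 were at or below it. In Th2 Cre libraries the 3p arm had 0 counts, where its day 7 WT share would give 7.125 and its neighbours' median was 10.55 CPM. In Th2 AGO2 KO libraries it had 5, where that share would give 5.47 and the median was 6.87 CPM. Across miRNAs counted in both experiments, levels had a Spearman rho, given as a description, of 0.823 over 496 miRNAs in Th2 cells and 0.807 over 300 in naive cells. One further name, miR-5099, stood at a far higher CPM in the pooled naive and the Th2 Cre libraries than in WT cells of the first experiment. A larger share for that name lowers the CPM of all others, and its part in the miR-139 counts was not tested. Experiment, genotype and depth differ together in both stages, and in Th2 cells the labelled day does too. These cannot be told apart.

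**Figure D4:**
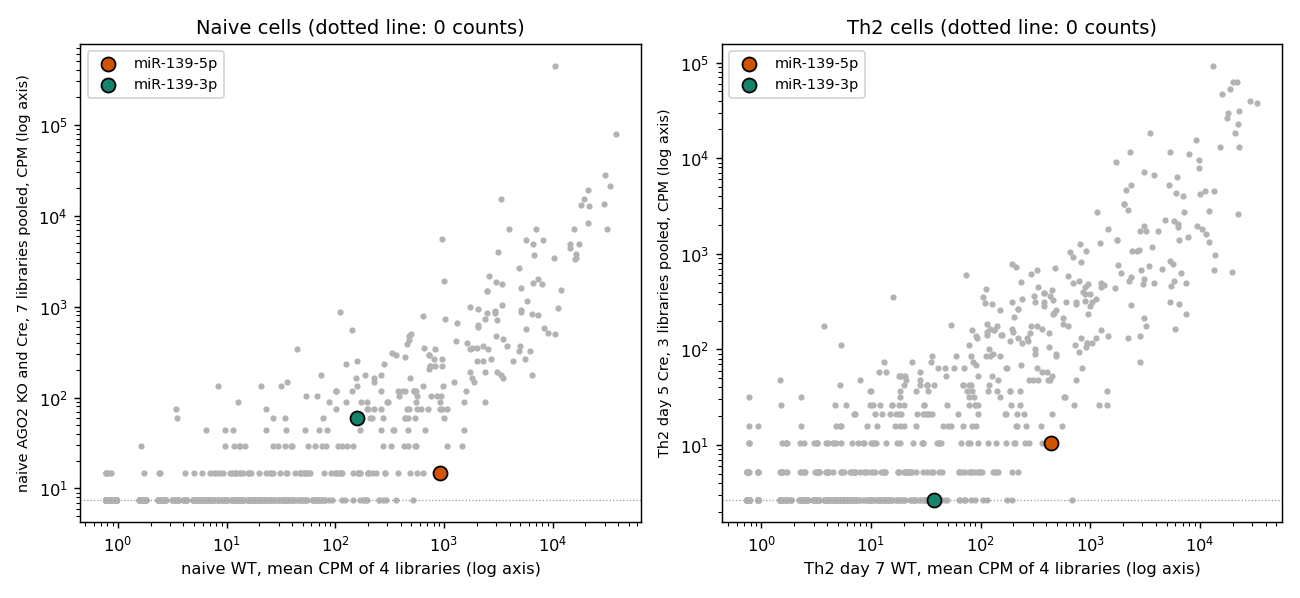
Level of each miRNA in the second experiment (vertical, pooled libraries) against its mean in WT cells of the first (horizontal), in CPM on log axes, for naive cells (left) and Th2 cells (right); points on the dotted line had 0 counts. miR-139-5p (orange) lies at the lower edge of the cloud in both panels, at 14.8 and 10.5 CPM, and miR-139-3p (green) lies inside the cloud or at 0.

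The profiles most like miR-139-5p over the 22 libraries were those of miR-150-3p, miR-181d-5p, miR-181b-5p, miR-181c-5p and miR-874-3p, with Pearson r of 0.97, 0.95, 0.94, 0.92 and 0.90 on log2 CPM. The median r over all miRNAs was -0.14, and libraries of a stage share much of what makes profiles alike. miR-150 restrains the transcription factor Myb in lymphocytes, and the miR-181 family tunes the sensitivity of the T cell receptor. For miR-139-3p they were miR-181a-5p, miR-181b-5p, miR-669o-5p, miR-466c-5p and miR-181c-5p, with r of 0.96, 0.96, 0.95, 0.94 and 0.94 against a median of -0.19. The arms of miR-139 had an r of 0.88 with each other. Within this company the 5p arm still had the deepest late step in WT cells: from day 7 to day 14 its -3.21 stood beside -1.42 for miR-150-3p, -2.32 for miR-181b-5p and -2.17 for miR-874-3p. Between genotypes these miRNAs differed among themselves. At day 7 the KO minus WT log2 fold changes of miR-150-3p, miR-181d-5p, miR-181b-5p, miR-181c-5p and miR-874-3p were -0.05, 0.12, -0.24, -0.15 and -0.86. At day 14 they were 0.29, 0.31, 1.05, 0.04 and 0.59 in the same order.

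**Figure D5:**
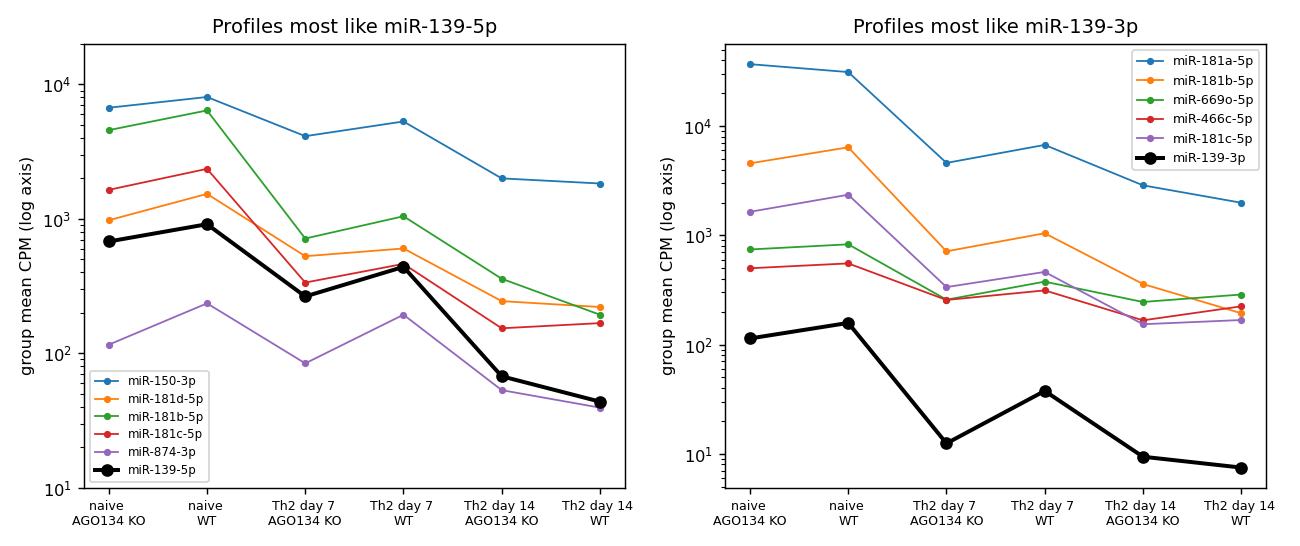
Group mean levels in CPM on a log axis for miR-139-5p (left, black) and miR-139-3p (right, black) with the 5 miRNAs whose profiles were most alike, KO left of WT at each stage. All 5p-like profiles are lower at day 14 than in naive cells, and miR-139-5p has the steepest last step in WT cells.

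A list of miRNAs that T cells are known to lose upon activation was read beside miR-139. This list and those below were chosen with earlier results of these data known, so their counts stand as a description. Of 18 listed, 15 fell and 1 rose in WT cells from naive to day 7 (edgeR adjusted p under 0.05), while 36.9% of all tested miRNAs fell and 39.5% rose. Their median log2 fold change was -0.77, against 0.11 for all tested, and 2 of the 18 lay below miR-139-5p. The most abundant members, miR-26a-5p, let-7f-5p and let-7a-5p, fell by 0.47, 0.51 and 0.75 on the log2 scale. Scaled to the STD entries, 5 of the 18 fell and 3 rose, with a median of -0.15, while 70 of all 382 fell and 200 rose, with a median of 0.73. From day 7 to day 14, 7 fell and 2 rose, with a median of -0.15, against 24.9% of all tested that fell and 25.1% that rose; 0 of the 18 lay below miR-139-5p.

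miRNAs known to be induced by activation rose for the most part over the first step. Of 22 listed, 19 rose and 1 fell from naive to day 7 in WT cells, against 39.5% and 36.9% of all tested, with a median log2 fold change of 1.44. miR-21a-5p, a common growth-associated miRNA, rose by 1.51, miR-182-5p, which restrains Foxo1 in helper T cells, by 2.05 and its cluster neighbour miR-183-5p by 3.88. From day 7 to day 14, 10 rose and 4 fell, against 25.1% and 24.9% of all tested, with a median of 0.25. miR-139-5p lay below every listed miRNA of this group in both steps.

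Markers of other cells differed in level and direction. The myeloid markers miR-223-3p and miR-223-5p summed to 0 to 19.3 CPM in naive KO and 15.5 to 30.5 CPM in naive WT libraries. Both were at 0 in every day 7 library, and at day 14 they summed to at most 3.84 CPM in KO and 3.27 CPM in WT libraries. Red cell and platelet markers summed to 123 to 382 CPM in naive KO and 220 to 660 CPM in naive WT libraries. At day 7 they summed to 66.4 to 102.5 CPM in KO and 59.7 to 102.9 CPM in WT libraries. Every day 14 library stood above every day 7 library of its genotype, with mean sums of 191.8 CPM in KO and 164.8 CPM in WT cells. Most of the sum was miR-486a-5p, which averaged 288.5 CPM in naive WT cells, 79.98 CPM at day 7 and 162.7 CPM at day 14. Counts of miR-451a and miR-144-5p were seen only in naive WT libraries. Endothelial and stromal markers stood higher at day 7, at 530 to 815 CPM in KO and 791 to 1052 CPM in WT libraries, than in naive cells, at 67.0 to 391 CPM in KO and 118 to 311 CPM in WT libraries. At day 14 they summed to 391 to 626 CPM in KO and 457 to 619 CPM in WT libraries. From day 7 to day 14 in WT cells, 2 of their 3 tested members fell and 0 rose, against 24.9% and 25.1% of all tested. In the same cells the most abundant members, miR-126a-3p and miR-126a-5p, averaged 313 and 183 CPM at day 14 against 427 and 358 CPM at day 7. The step was larger for miR-143-3p, which averaged 9.56 CPM at day 14 against 129 CPM at day 7. The summed level of the 11 epithelial, liver, muscle and neural markers was lower at each later stage, as was miR-139, but the members did not move together. Of the 7 tested, 3 fell and 3 rose in WT cells from naive to day 7, against 36.9% and 39.5% of all tested. From day 7 to day 14, 5 fell and 0 rose, against 24.9% and 25.1% of all tested. In KO cells they summed to 1618 to 3145 CPM as naive cells, 1238 to 1449 CPM at day 7 and 549 to 676 CPM at day 14. In WT cells they summed to 2643 to 3233 CPM as naive cells, 1468 to 1899 CPM at day 7 and 575 to 637 CPM at day 14. Their most abundant member over all libraries, the epithelial miR-200c-3p, was lower at each later stage in WT cells, whereas the liver miRNA miR-122-5p averaged 200 CPM in naive cells, 679 CPM at day 7 and 32.9 CPM at day 14. The muscle miRNA miR-133a-3p was at 0 at both culture stages in both genotypes. The part of these markers in the miR-139 values was not tested.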

How the data were processed

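The deposited files hold whole-number counts per mature miRNA entry, which the authors made by small RNA sequencing with an Illumina TruSeq kit, per the labels' protocols. The labels state single-end reads and the series text paired-end reads. Reads were placed on GRCm38, going by the submitters' processing notes. The aligner, the counter and the strand setting were not given in the sources used here.

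The files list 2119 entries each, and 9 named STD were kept out of library sizes. CPM was taken over the 2110 other entries. The fit used the entry with the highest total of each mature name. miR-139 has 1 entry per arm. Groups come from the sample labels. The 48 pairs of replicates differed by more than sampling noise (lowest chi-square per degree of freedom 1.88).

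Counts of the 22 libraries of the first experiment were fitted with edgeR 4.0.16 in R 4.3.3 (TMM, filterByExpr with a minimum count of 10, quasi-likelihood test, 1 mean per group, Benjamini-Hochberg adjustment over the 382 tested names, threshold 0.05). The fit was tested on simulated data. Under TMM the median log2 fold change of all tested miRNAs lay near 0, and every change is relative to the other miRNAs. The 14 libraries of the second experiment were described by counts. Ratios of counts and shares have exact 95% binomial intervals, and intervals and limits cover counting error only. Likeness is Pearson r on log2 TMM CPM with a prior count of 2.

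The members and lists were chosen with earlier results of these data known. The named miRNAs are both arms, the 5 most alike each, and up to 3 members of each list by mean CPM. miR-133a-3p and miR-5099 were named after their values were seen. Alternatives were DESeq2 1.42.0 and its size factors, library size alone, scaling to the STD entries, no filter, the groups of a contrast alone, a replicate block, each library left out and, added after seeing the data, all locus entries.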

Additional observations from a re-analysis of the deposited data

How the results depend on the processing

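Of 296 values recomputed for the miR-139 contrasts, arm shares and lists, 278 stayed within the spread between replicates or, for counts, within 1.5 times, 14 moved and 4 changed sign. The scaling moved most. With library size as the only scaling, the naive KO minus WT log2 values were -0.38 (5p) and -0.46 (3p) and the day 7 value of 5p -0.72, while the medians of all tested were -0.33 and -0.31. Scaled to the STD entries, the genotype values were -0.83 (5p) and -0.91 (3p) in naive cells and -1.03 and -1.83 at day 7, with medians of -0.77 and -0.62, and the day 7 minus naive values were -0.72 and -1.71 in WT and -0.92 and -2.63 in KO cells, with medians of 0.73 and 0.80. That scaling also left 5 of the activation-lost miRNAs lower at day 7 and 6 of the activation-induced higher at day 14. Over all tested miRNAs it gave 70 lower and 200 higher from naive to day 7 in WT cells, against 141 and 151 under TMM, and 89 and 52 from day 7 to day 14, against 95 and 96; library size gave 122 and 167, then 113 and 75. DESeq2, its size factors, no filter, the groups alone, all locus entries and pooled shares moved no value that could be fitted.

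Leaving out each library in turn gave -0.17 to 0.051 for the naive 5p genotype value, which changed sign without WT 3 or KO 4, -0.13 to 0.94 for 3p at day 14 (sign changed without KO 2) and -1.06 to 0.058 for 3p in KO cells from day 7 to day 14 (without KO 4). It gave 0.49 to 1.07 for 5p at day 14 and -1.72 to -1.06 for 3p at day 7. The cause was not tested.

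The replicate block moved 5p in KO cells from day 7 to day 14 to -1.83. Over 24 pairs of libraries with a shared number the correlation of deviations ran from -0.31 to 0.15, with 2 over 0.1. The best match was the library of the same number in 11 of 44 comparisons, and in 4 of 8 between genotypes in naive cells. Low correlations between noisy libraries cannot exclude a pairing, so whether shared numbers pair the libraries was left undecided. The 3p arm failed the filter of the block fit, and of the groups alone, in 3 contrasts (KO minus WT at day 7 and at day 14, and KO cells from day 7 to day 14). No alternative was run for the second experiment, where neither arm passed the filter. Depth limits the 3p arm from day 7 on and both arms in the second experiment.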
